A study of Homo sapiens with 6 samples.

Results

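The integrated stress response acts on transcription through ATF4 and CHOP, and 10 genes of that programme are described here: *ATF3*, *ATF4*, *DDIT3*, *DDIT4*, *TRIB3*, *CHAC1*, *SESN2*, *PPP1R15A*, *ASNS* and *CEBPB*. They were taken by gene name from the table of read counts, where all 10 were found among 17222 rows of genes. All 10 were also among the 14660 genes that passed the filter on low counts, but *CHAC1* passed only through its ASO_LINC#3 libraries. The list was selected on measured values, with the differences between the ASO_LINC#3 and ASO_CTRL libraries already known, so the values of the 10 genes are a description and carry no test. The libraries came from H226, an established line of human lung squamous carcinoma cells. Cells had received ASO_CTRL, a control antisense oligonucleotide, or ASO_LINC#3, an antisense oligonucleotide against the long noncoding RNA *SWINGN* (*LINC00565*), by transient transfection, and both conditions were collected 48 h later with 3 libraries each. A single oligonucleotide was used for the depletion, so an effect of losing the transcript and any other effect of that oligonucleotide cannot be told apart. The *SWINGN* transcript was not analysed here, so its depletion was not checked in these libraries. Sample labels give H226 as the cells although the RNA-seq methods speak of BJ fibroblasts, and the labels were followed.

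In the integrated stress response, a stress-activated kinase phosphorylates the translation initiation factor eIF2α, which slows protein synthesis in general while the *ATF4* mRNA is translated more efficiently. ATF4 then activates genes of amino acid supply and redox balance, as well as *DDIT3*, which encodes CHOP, and both factors work as dimers with other basic leucine zipper (bZIP) proteins. The programme also holds its own brakes, among them *PPP1R15A*, which directs a phosphatase to eIF2α. Control of ATF4 lies to a large part in translation, so its mRNA level and its activity need not move together.

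ATF4 with a C/EBP partner binds a composite element, the C/EBP-ATF response element (CARE), and the promoters of the 10 genes were searched for it and for related elements. The windows, 250 bases before to 50 after each start, came from RefSeq (GRCh38.p14), and the stretches below were placed by exact match on GRCh37, the build of the files. Each stretch is printed 5′ to 3′ on the gene's strand, with the element in capitals. They are shown as elements that ATF and C/EBP dimers, or related bZIP dimers, can bind. The windows of *DDIT4*, *SESN2* and *TRIB3*, which also differed between the conditions, held none of them, and neither did those of *ATF4* and *CEBPB*.
*ATF3*, chr1:212738542-212738581, plus strand, CARE: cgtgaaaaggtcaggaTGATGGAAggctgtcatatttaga
*ASNS*, chr7:97501765-97501804, minus strand, CARE: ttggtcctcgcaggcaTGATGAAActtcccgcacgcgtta
*CHAC1*, chr15:41245444-41245483, plus strand, CARE read on the opposite strand: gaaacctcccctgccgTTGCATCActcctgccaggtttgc
*PPP1R15A*, chr19:49375604-49375643, plus strand, cAMP response element: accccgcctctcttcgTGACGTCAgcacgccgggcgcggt
*DDIT3*, chr12:57914516-57914547, minus strand, AP-1 site: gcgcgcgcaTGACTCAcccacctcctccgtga

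The CARE was searched as TGATGNAA on both strands and was found in 3 of the 10 genes, *ATF3*, *CHAC1* and *ASNS*. It was present in 3.62% of all 35116 windows, and in 2.62% of the 8820 tested genes that had a window. Its first base lay at -191 from the start in *ATF3*, at -209 in *CHAC1* and at -68 in *ASNS*. The cAMP response element, TGACGTCA, was found in *PPP1R15A*, from -58, and in 1.85% of all windows and 3.9% of tested genes with a window. The AP-1 site, TGANTCA, was found in *DDIT3*, from -241, and in 7.71% of all windows and 7.1% of tested genes with a window. The endoplasmic reticulum stress element was searched in its exact consensus form only, which was found in 0.0769% of windows and in none of the 10 genes. Forms that depart from it were not searched, and the *DDIT3* windows hold a stretch that differs from it in the last base. In the forms searched, no promoter of the 10 held more than 1 of these elements, so none overlapped another. With 1 gene each, the matches to the cAMP response element and the AP-1 site were too few to be set against those shares. Such matches describe letters in these windows and not binding, and elements outside the windows, in introns for instance, were not searched.

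Between 3686828 and 10546786 reads were counted on genes per library, with ASO_LINC#3 replicate 3 the lowest. Libraries of the same condition differed by more than counting error in every pair, with a chi-square per degree of freedom from 2.622, between ASO_LINC#3 replicates 1 and 2, to 14.87, between ASO_LINC#3 replicates 2 and 3. ASO_LINC#3 replicate 3 gave 13.92 and 14.87 against the other libraries of its condition, while the ASO_CTRL pairs gave 7.682, 9.199 and 13.1. It was thus apart from 2 libraries that were close to each other. The measure grows with depth, so it cannot place this library, with the fewest reads, against the spread between ASO_CTRL libraries. Without ASO_LINC#3 replicate 3, 2616 genes were called over the whole table in place of 1106. Leaving out any other library gave from 359 to 531. The counts of called genes are also given without ASO_LINC#3 replicate 3. The study states in general terms that its experiments used biological replicates, while the labels of these libraries give only a replicate number, and p-values measure the spread between these libraries. Markers of the labelled cell type were only partly present. Of 7 squamous markers 2 were in the table, their sum was from 94.4 to 117 CPM, reads of a gene scaled to a common library size, with ASO_CTRL and from 63.5 to 78.9 with ASO_LINC#3, almost all of it *KRT5*, and the other 5 were not analysed here. The simple epithelial keratins, 4 of 6 markers in the table, summed to between 11696 and 12642 CPM with ASO_CTRL and to between 7103 and 12434 with ASO_LINC#3. All 4 mesothelial markers were in the table, and their sum was from 634 to 834 CPM with ASO_CTRL and from 209 to 323 with ASO_LINC#3. Most of that sum was *CALB2*, with means of 601 CPM with ASO_CTRL and 154 with ASO_LINC#3. The means of *UPK3B* and *WT1* were also lower with ASO_LINC#3, and that of *MSLN* was not (29.1 and 31.1 CPM). Of 8 markers of blood, endothelial and fibroblast cells 1 was in the table, *CD14*, at no more than 2.17 CPM in any library. The part of the keratin differences and of the lower mesothelial sum in the results below was not tested. In bulk RNA fewer cells of a type and less RNA per cell cannot be told apart.

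Treatment with ASO_LINC#3 went with higher levels of most of the 10 genes. The call required an adjusted p below 0.01 (edgeR's quasi-likelihood test with Benjamini-Hochberg adjustment over all 14660 genes) and a log2 fold change beyond 0.5. Of the 10 genes 8 were called, all higher with ASO_LINC#3, and the exceptions were *ATF4* and *CEBPB*. Apart from *CHAC1*, which was tested only because of its ASO_LINC#3 values, 7 of 9 were called. Across all genes tested 7.54% were called, 4.91% higher and 2.63% lower, and since the list was made with this contrast in view nothing is read from that comparison. For 9 of the 10 genes every ASO_LINC#3 library lay above every ASO_CTRL library, an arrangement found in 18.7% of all genes tested, while 17.3% showed the opposite one. The fitted log2 fold changes of the 10 had a median of 1.36, or 1.32 without *CHAC1*, and ran from 0.10 to 2.46, whereas those of all genes tested had a median of -0.0027 and 90% of them lay between -0.85 and 0.98. Each ASO_LINC#3 library set against the mean of the ASO_CTRL libraries gave a positive change in all 10 genes, or 30 of 30 values, with medians of 1.26, 1.33 and 1.56 in replicates 1, 2 and 3.

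**Figure D1:**
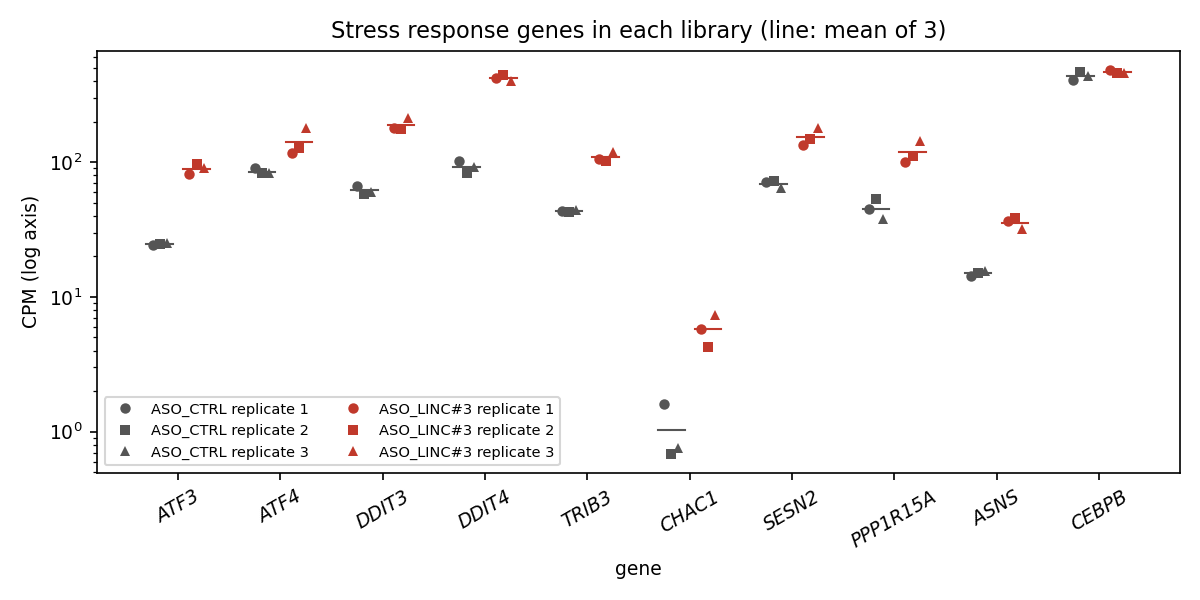
CPM of each of the 10 genes (log axis) in the 3 ASO_CTRL libraries (grey) and the 3 ASO_LINC#3 libraries (red), with symbols for the replicate number and lines for the means. The red points lie above the grey ones for every gene except *CEBPB*, where the conditions overlap at 408 to 483 CPM, and *CHAC1* has the lowest points.

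Among the transcription factors, *ATF4* itself moved less than most of the other genes. Its level was 90.0, 82.6 and 83.1 CPM in ASO_CTRL replicates 1 to 3, and 116, 126 and 180 CPM in ASO_LINC#3 replicates 1 to 3. All ASO_LINC#3 libraries were above all ASO_CTRL libraries, and replicate 3 was the highest by a wide margin. The mean went from 85.2 ± 4.12 to 141 ± 34.0 CPM (SD, n = 3), a fitted log2 fold change of 0.72 (SE, the standard error, 0.17), or 1.65-fold, and the gene did not pass the call. Without ASO_LINC#3 replicate 3 the log2 fold change fell to 0.51 and the gene was called. The gene lies at chr22:39915700-39918688 on the plus strand.

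*DDIT3* encodes CHOP, a C/EBP family member that is induced by ATF4 and drives a further set of genes, several of them linked to cell death. It was at 66.9, 58.5 and 60.4 CPM with ASO_CTRL and at 178, 177 and 214 CPM with ASO_LINC#3. No library of either condition came near those of the other, and ASO_LINC#3 replicates 1 and 2 gave nearly the same value. The mean rose from 61.9 ± 4.43 to 190 ± 21.0 CPM (SD, n = 3), with a log2 fold change of 1.61 (SE 0.14), or 3.06-fold. *DDIT3*, at chr12:57910371-57915520 on the minus strand, shares 355 of its 1307 exonic bases with *MARS1*, listed as *MARS* in the table, on the opposite strand. The strand setting of the counting is not stated in the sources, so reads in the shared 27.2% cannot be assigned with certainty to either gene. A further 58 exonic bases (4.44%) are shared with *MBD6* on the opposite strand, and 105 (8.03%) with an unnamed gene model on the same strand that was not analysed here.

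*ATF3*, a bZIP factor induced by many stresses and a known target of ATF4, was at 24.2, 24.8 and 25.2 CPM with ASO_CTRL. With ASO_LINC#3 it was at 82.2, 96.9 and 89.7 CPM. The ASO_CTRL libraries were almost equal, and every ASO_LINC#3 library was far above them. The mean rose from 24.7 ± 0.472 to 89.6 ± 7.35 CPM (SD, n = 3), with a log2 fold change of 1.85 (SE 0.13), or 3.62-fold. The gene lies at chr1:212738676-212794119, and the CARE shown above is in the upstream one of its 2 promoter windows. The other window, from chr1:212788110, held none of the elements, and any start of the gene without a window was not searched.

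*CEBPB*, a C/EBP factor that can pair with ATF4 and CHOP, was per kilobase the most abundant of the 10 genes and the only one whose conditions overlapped. Its level was 408, 464 and 436 CPM with ASO_CTRL and 483, 456 and 458 CPM with ASO_LINC#3. The log2 fold change was 0.10 (SE 0.11), and the gene was called under none of the 19 alternative settings. *CEBPB*, a gene without introns at chr20:48807367-48809205, shares 231 of its 1839 exonic bases with the antisense gene *CEBPB-AS1*, which was not analysed here.

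*PPP1R15A* and *TRIB3* act back on the response, and both were higher in every ASO_LINC#3 library. *PPP1R15A* encodes GADD34, the stress-induced subunit that brings protein phosphatase 1 to eIF2α. It was at 44.6, 52.8 and 37.7 CPM with ASO_CTRL and at 101, 112 and 142 CPM with ASO_LINC#3. The ASO_CTRL values were more scattered than for most of the 10 genes, yet the conditions did not approach each other. Its log2 fold change was 1.39 (SE 0.18), from a mean of 45.0 ± 7.58 to 118 ± 21.7 CPM (SD, n = 3). The gene is at chr19:49375469-49379316 and its promoter window holds the cAMP response element shown above.

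*TRIB3*, a pseudokinase induced by ATF4 and CHOP that restrains ATF4 activity and AKT, had the steadiest ASO_CTRL values of the 10 genes relative to its level. It was at 43.8, 42.7 and 44.1 CPM with ASO_CTRL and at 105, 103 and 119 CPM with ASO_LINC#3. Its mean rose from 43.5 ± 0.735 to 109 ± 8.95 CPM (SD, n = 3), and the log2 fold change was 1.32 (SE 0.13). The gene is at chr20:343479-378203 on the plus strand.

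*DDIT4* and *SESN2* act on mTORC1, the kinase complex that promotes growth when amino acids and energy are plentiful, and both restrain it. *DDIT4*, known as REDD1, was at 102, 83.3 and 92.3 CPM with ASO_CTRL and at 423, 441 and 401 CPM with ASO_LINC#3. The conditions were far apart, and the ASO_LINC#3 libraries lay close together. The mean rose from 92.6 ± 9.47 to 422 ± 20.2 CPM (SD, n = 3), a log2 fold change of 2.19 (SE 0.13), or 4.55-fold. *DDIT4* is also induced by hypoxia and glucocorticoids, and it lies at chr10:74033678-74035794.

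*SESN2*, a leucine sensor of the sestrin family, was at 70.8, 72.3 and 64.3 CPM with ASO_CTRL and at 133, 147 and 180 CPM with ASO_LINC#3. As for *ATF4*, replicate 3 was the highest of the ASO_LINC#3 libraries, and no value overlapped between the conditions. The log2 fold change was 1.15 (SE 0.15), or 2.22-fold, starting from a mean of 69.1 ± 4.25 CPM (SD, n = 3) with ASO_CTRL. *SESN2* lies at chr1:28586029-28609002.

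Of the metabolic targets, *ASNS* encodes asparagine synthetase, whose promoter CARE is a textbook site of ATF4. It was at 14.4, 15.1 and 15.5 CPM with ASO_CTRL and at 36.4, 38.5 and 31.7 CPM with ASO_LINC#3. The values rose from 15.0 ± 0.535 to 35.6 ± 3.48 CPM (SD, n = 3), with a log2 fold change of 1.25 (SE 0.15), or 2.38-fold. In contrast to *ATF4*, its lowest ASO_LINC#3 value was that of replicate 3. At chr7:97480989-97501854 on the minus strand, *ASNS* shares 2415 of 4896 exonic bases with an unnamed gene model on the same strand, which was not analysed here, so its reads cannot be assigned with certainty.

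*CHAC1*, which encodes an enzyme that degrades glutathione, had the largest fitted fold change of the 10 genes and by far the fewest reads. It had 12, 4 and 8 reads with ASO_CTRL and 39, 25 and 27 reads with ASO_LINC#3. In CPM these were 1.62, 0.688 and 0.763 against 5.73, 4.28 and 7.32, so the conditions did not overlap. None of the ASO_CTRL libraries and all 3 ASO_LINC#3 libraries reached the filter, at 1.59 CPM before TMM scaling, so a gene that passed in this way had to differ. The log2 fold change of 2.46 had a standard error of 0.37, the widest of the 10 genes. The call of *CHAC1* was lost without ASO_CTRL replicate 2 (log2 fold change 2.31), without ASO_CTRL replicate 3 (2.23) and without ASO_LINC#3 replicate 1 (2.45). Only 0.8% of all genes tested had a lower mean with ASO_CTRL than *CHAC1*, which lies at chr15:41245160-41248710.

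**Figure D2:**
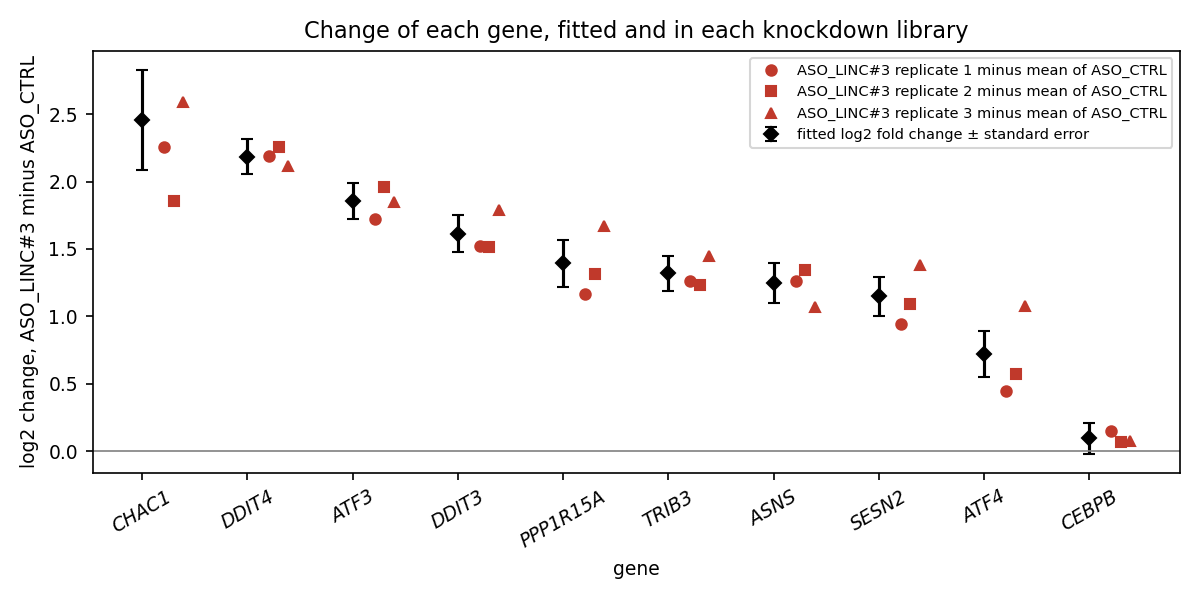
Log2 change of each of the 10 genes, with the fitted value and its standard error (black) beside the change of each ASO_LINC#3 library against the mean of the ASO_CTRL libraries (red). All red points are above 0, from 0.07 for *CEBPB* to 2.59 for *CHAC1*, and replicate 3 (triangles) is the highest of the 3 for *CHAC1*, *DDIT3*, *PPP1R15A*, *TRIB3*, *SESN2* and *ATF4*.

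Levels of different genes were compared per kilobase of the canonical transcript. With ASO_CTRL the order in CPM per kilobase was *CEBPB* (237), *DDIT3* (68.6), *ATF4* (60.1), *DDIT4* (53.0), *SESN2* (20.0), *PPP1R15A* (19.2), *TRIB3* (18.5), *ATF3* (12.8), *ASNS* (6.29) and *CHAC1* (0.673). *ATF4* and *DDIT4* overlapped in this order, and so did *SESN2*, *PPP1R15A* and *TRIB3*, while the other neighbours were apart in all libraries. With ASO_LINC#3 the order was *CEBPB* (253), *DDIT4* (241), *DDIT3* (210), *ATF4* (99.3), *PPP1R15A* (50.3), *ATF3* (46.2), *TRIB3* (46.2), *SESN2* (44.3), *ASNS* (14.9) and *CHAC1* (3.80). *DDIT4* and *DDIT3* thus stood above *ATF4*, *DDIT4* overlapped with both *CEBPB* and *DDIT3*, and the 4 genes from *PPP1R15A* to *SESN2* could not be put in an order. The labels describe first strand synthesis from dT oligos, so reads may gather near the 3′ ends and values per kilobase of long and short transcripts may not be on the same footing.

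The SD in CPM between the ASO_LINC#3 libraries was larger than that between the ASO_CTRL libraries in 9 of the 10 genes, the exception being *CEBPB*. An SD in CPM tends to rise with the level, and the means of these 9 genes were higher with ASO_LINC#3. The larger SD therefore does not show greater scatter relative to the level. The library with the fewest reads, ASO_LINC#3 replicate 3, gave a larger change than the mean of replicates 1 and 2 in 7 genes and a smaller one in 3, *ASNS*, *DDIT4* and *CEBPB*. This difference had a median of 0.23 on the log2 scale and ran from -0.24 in *ASNS* to 0.57 in *ATF4*. Over all genes tested its quartiles were -0.35 and 0.37, and *ATF4*, *CHAC1* (0.54) and *PPP1R15A* (0.43) lay outside them. With ASO_LINC#3 replicate 3 left out, 9 of the 10 genes were called in place of 8, the added one being *ATF4*, and the median log2 fold change was 1.28. The number of genes called over the whole table rose from 1106 to 2616 in the same fit, so the background differs as well.

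Offsets that removed the trend of each library on GC content and transcript length changed the place of replicate 3. With them it was above the mean of replicates 1 and 2 in 5 genes in place of 7, and the differences ran from -0.66 in *CEBPB* to 0.21 in *ATF4*. *DDIT4* went to -0.51 and *TRIB3* to -0.30. The fitted log2 fold changes moved little, to 1.87 for *ATF3*, 1.68 for *DDIT3*, 2.24 for *DDIT4*, 1.35 for *TRIB3*, 2.53 for *CHAC1*, 1.12 for *SESN2*, 1.36 for *PPP1R15A* and 1.22 for *ASNS*. That of *CEBPB* went to 0.21, with changes of 0.42, 0.39 and -0.26 in replicates 1, 2 and 3, so the direction of *CEBPB* was not shared by the 3 libraries on that scale. The 10 genes span a canonical transcript GC content from 42.73% in *ASNS* to 66.23% in *CEBPB*.

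**Figure D3:**
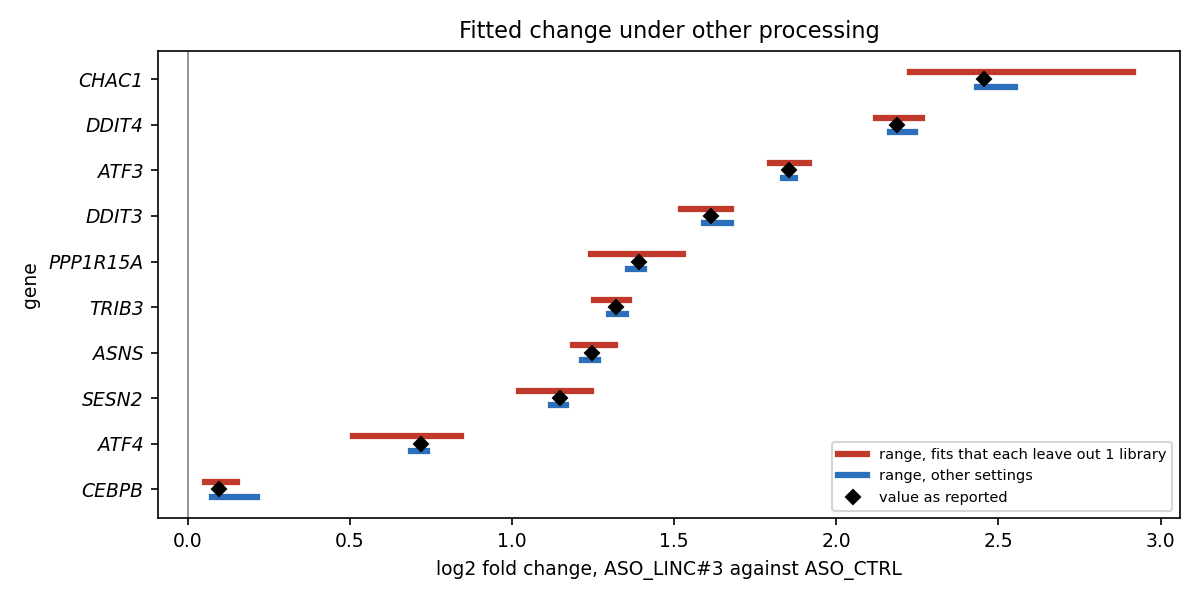
Fitted log2 fold change of each of the 10 genes as reported (diamonds), with its range over the 6 fits that each leave out a library (red) and over the other settings (blue). No range crosses 0; the widest is that of *CHAC1*, from 2.23 to 2.92, and that of *ATF4* runs from 0.51 to 0.84.

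The steps around the 10 genes were followed in lists of related genes, 115 different genes in all, of which 111 were tested. These lists, too, were put together with earlier results of these libraries known. Counts at an unadjusted p below 0.05 are given below without the share of all genes tested, so nothing is read from them. That share was not small: in edgeR's test *EIF2AK1*, at an unadjusted p of 0.0379, had an adjusted p of 0.128. Of the 111 genes 17 were called higher and 1 was called lower, beside the 4.91% and 2.63% of all genes tested, and their median log2 fold change was 0.22. The number called higher depended on the libraries used, and was 7 without ASO_CTRL replicate 3 and 27 without ASO_LINC#3 replicate 3. The number called lower was 8 in the latter fit.

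**Figure D4:**
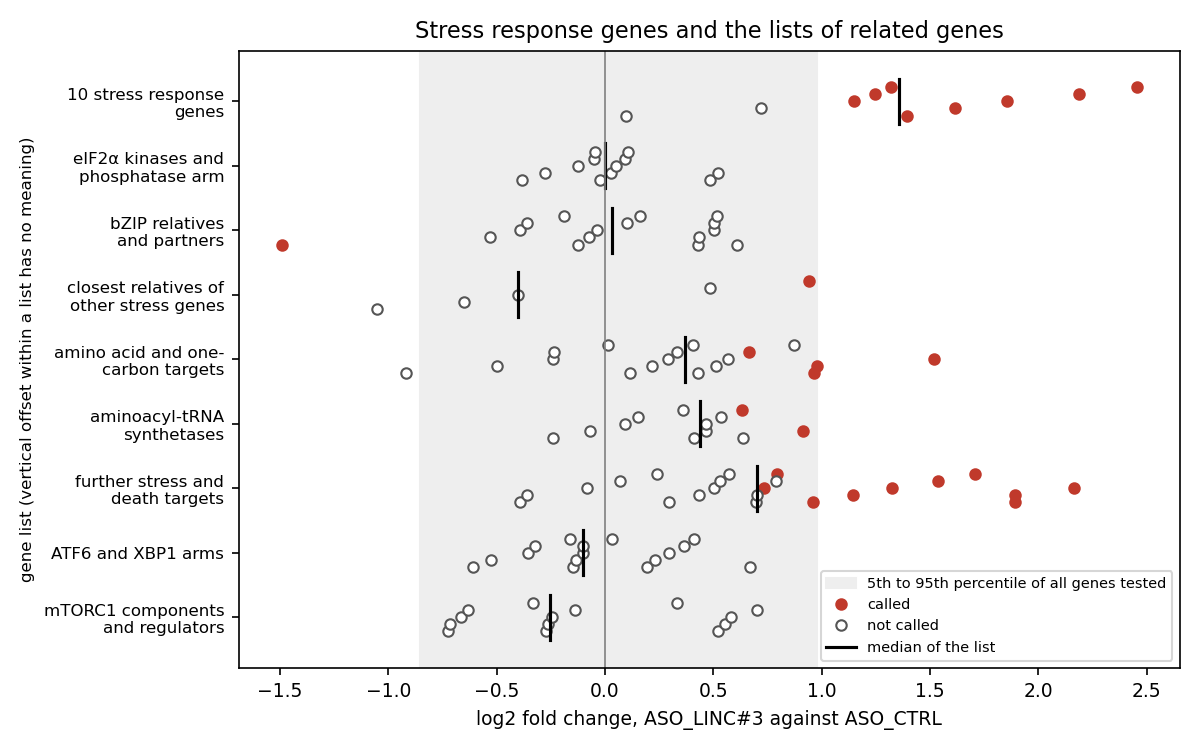
Fitted log2 fold change of the 10 genes (top row) and of each gene in the 8 lists of related genes, with filled symbols for genes that were called, black lines for list medians and a grey band for the range from the 5th to the 95th percentile of all genes tested. Called genes gather in the rows of ATF4 and CHOP targets, with 10 of 23 in the row of further stress and death targets, and the lists were made with earlier results known. None is seen in the rows of the eIF2α kinases, the ATF6 and XBP1 arms or mTORC1. With 7.54% of all genes tested called, 0 in lists this short does not set those rows apart.

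Upstream, the mRNAs of the eIF2α kinases and of the phosphatase arm showed no called gene among 12 tested by edgeR's quasi-likelihood test. With 7.54% of all genes tested called, this does not set so short a list apart. At an unadjusted p below 0.05 there were 2, and DESeq2 and limma-voom each called 0, although *PPP1R15B* was called without ASO_LINC#3 replicate 3 (log2 fold change 0.63). The median log2 fold change of the list was 0.0002. All 4 kinases were measured, and these are regulated by phosphorylation and not mainly by their mRNA. *EIF2AK1*, which encodes the heme-regulated kinase HRI, was at 192, 195 and 175 CPM with ASO_CTRL and at 156, 153 and 155 CPM with ASO_LINC#3. Its libraries did not overlap, but its log2 fold change of -0.28 (SE 0.12) did not pass (edgeR adjusted p = 0.128). *EIF2AK2*, encoding PKR, had a log2 fold change of 0.09 (edgeR adjusted p = 0.707), *EIF2AK3*, encoding PERK, of 0.10 (adjusted p = 0.832) and *EIF2AK4*, encoding GCN2, of -0.05 (adjusted p = 0.856). The sign of these 3 depended on the setting or the libraries used. *PPP1R15B*, the constitutive counterpart of *PPP1R15A*, was at 38.0, 47.8 and 47.5 CPM with ASO_CTRL and at 68.3, 68.8 and 48.3 CPM with ASO_LINC#3 (log2 fold change 0.48, edgeR adjusted p = 0.0744). *IMPACT*, an inhibitor of GCN2, had a log2 fold change of -0.38 (edgeR adjusted p = 0.158).

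The bZIP relatives and possible partners of ATF4 and CHOP gave 1 called gene in 16 tested by edgeR, and it was lower. At an unadjusted p below 0.05 there were 5 higher and 2 lower, and DESeq2 and limma-voom called 0 higher. Without ASO_LINC#3 replicate 3 the list gave 1 higher and 3 lower, *CREB3* and *ATF5* being the added lower genes, named here because they were called. *CEBPD*, a C/EBP factor close to *CEBPB*, was at 373, 429 and 431 CPM with ASO_CTRL and at 137, 124 and 178 CPM with ASO_LINC#3. It fell in every library, with a log2 fold change of -1.49 (SE 0.15, edgeR adjusted p = 0.000172), and it was called under all 19 alternatives. Of *CEBPB* and *CEBPD* only the latter passed the call, and the difference between their changes was not tested. *NFE2L1* had a log2 fold change of 0.52 (edgeR adjusted p = 0.0230) and *ATF1* of -0.53 (edgeR adjusted p = 0.0388), and neither passed. Their list had a median log2 fold change of 0.03, and *CEBPA* was not analysed here.

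Closest relatives of the other genes did not share a direction. Of 5 tested, 1 was called higher and 0 lower by edgeR, DESeq2 and limma-voom called 0 lower, and at an unadjusted p below 0.05 there were 2 higher and 3 lower. *TRIB1*, a pseudokinase related to *TRIB3* that targets C/EBP proteins, was at 12.1, 16.9 and 11.4 CPM with ASO_CTRL and at 28.4, 22.1 and 26.3 CPM with ASO_LINC#3. Its log2 fold change was 0.94 (SE 0.20, edgeR adjusted p = 0.00865). The call was lost without ASO_CTRL replicate 1 (0.88), without ASO_CTRL replicate 3 (0.82), without ASO_LINC#3 replicate 1 (0.85) and without ASO_LINC#3 replicate 2 (1.04). Without ASO_LINC#3 replicate 3 the list, then with 6 genes tested, gave 2 higher and 0 lower. *TRIB2* had a log2 fold change of -1.05 (SE 0.36, edgeR adjusted p = 0.0670). The sestrin *SESN1* had -0.65 (edgeR adjusted p = 0.0875) and *CHAC2*, the constitutive relative of *CHAC1*, had -0.40 (edgeR adjusted p = 0.140). None of these 3 passed. *DDIT4L* was below the filter on low counts, with 4 to 16 reads per library, and *SESN3* was not analysed here.

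Among targets of ATF4 for amino acid uptake, amino acid synthesis and one-carbon metabolism, 4 of 18 genes tested were called higher and 0 lower by edgeR. At an unadjusted p below 0.05 there were 10 higher and 2 lower, and DESeq2 and limma-voom called 0 lower. The called genes were *SLC7A11*, *PSAT1*, *MTHFD2* and *SHMT2*, the last of which is named because it was called. *SLC7A11*, the cystine importer that supplies glutathione synthesis, was at 6.60, 7.23 and 9.35 CPM with ASO_CTRL and at 23.4, 24.0 and 19.5 CPM with ASO_LINC#3. Its log2 fold change was 1.52 (SE 0.19, edgeR adjusted p = 0.000567), and it was called in all 19 alternatives. *PSAT1*, of serine synthesis, rose by a log2 fold change of 0.97 (SE 0.14, edgeR adjusted p = 0.00125) and *MTHFD2*, of mitochondrial one-carbon metabolism, by 0.98 (SE 0.14, edgeR adjusted p = 0.00129). Both lost the call without ASO_CTRL replicate 3, where their log2 fold changes were 1.00 and 0.96. Without that library 1 gene of the list was called higher, and without ASO_LINC#3 replicate 3 the list gave 5 higher and 1 lower, *PYCR1*. *ASNS*, the amino acid gene among the 10 genes, had a log2 fold change of 1.25, and the median of the list was 0.37. *ALDH1L2* was not analysed here.

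ATF4 also activates many genes of aminoacyl-tRNA synthetases, which load amino acids onto tRNAs. Of 12 tested, 8 had all ASO_LINC#3 libraries above all ASO_CTRL libraries and 0 the reverse, beside 18.7% and 17.3% of all genes tested. The list was made with earlier results known, and its median log2 fold change was 0.44. By edgeR's test 2 were called higher and 0 lower, and at an unadjusted p below 0.05 there were 8, all higher. Without ASO_LINC#3 replicate 3 there were 4 called higher and 0 lower. *CARS* was at 29.2, 29.4 and 28.2 CPM with ASO_CTRL and at 48.4, 54.4 and 61.5 CPM with ASO_LINC#3 (log2 fold change 0.91, edgeR adjusted p = 0.00182). *GARS* had a log2 fold change of 0.63 (edgeR adjusted p = 0.00673). Leaving out any of the ASO_CTRL libraries ended both calls, with log2 fold changes of 0.92, 0.93 and 0.89 for *CARS* and of 0.70, 0.61 and 0.60 for *GARS* without ASO_CTRL replicate 1, 2 and 3. *GARS* was not called either without ASO_LINC#3 replicate 1 (0.61) or replicate 2 (0.60). *MARS*, whose exons overlap those of *DDIT3*, was at 144, 119 and 140 CPM with ASO_CTRL and at 206, 240 and 179 CPM with ASO_LINC#3. Its log2 fold change of 0.64 (edgeR adjusted p = 0.0132) did not pass with all libraries and passed without ASO_LINC#3 replicate 3 (0.73). In *MARS* replicate 3 was the lowest of the ASO_LINC#3 libraries, and in *DDIT3* it was the highest.

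Further targets of ATF4 or CHOP in stress signalling and cell death held the most calls of these lists, 10 of 23 tested, all higher, with 0 lower by edgeR, DESeq2 or limma-voom and 0 lower at an unadjusted p below 0.05. For 18 of the 23 genes every ASO_LINC#3 library was above every ASO_CTRL library, beside 18.7% of all genes tested. This list, too, was made with earlier results known, and its median log2 fold change was 0.70. The called genes were *GDF15*, *STC2*, *VEGFA*, *ERO1L*, *TNFRSF10B*, *PMAIP1*, *GADD45A*, *MAP1LC3B*, *SQSTM1* and *NFIL3*. Without ASO_CTRL replicate 3 the number called was 6, and without ASO_LINC#3 replicate 3 there were 12 called higher and 1 lower, *ATF5*. *VEGFA*, the angiogenic growth factor, was at 53.6, 53.0 and 59.4 CPM with ASO_CTRL and at 254, 262 and 230 CPM with ASO_LINC#3 (log2 fold change 2.17, SE 0.13, edgeR adjusted p = 5.834e-06). *GDF15*, a secreted stress cytokine, went from 190, 200 and 186 CPM to 555, 595 and 736 CPM (log2 fold change 1.71, SE 0.14, edgeR adjusted p = 3.456e-05). *STC2*, a secreted glycoprotein, went from 5.66, 6.02 and 4.20 CPM to 18.8, 20.0 and 19.2 CPM (log2 fold change 1.89, SE 0.20, edgeR adjusted p = 0.000176). These 3 genes were called under all 19 alternatives. Several genes of the list also answer to hypoxia, p53 or NRF2, and the part of those pathways was not tested.

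The neighbouring arms of the unfolded protein response, which run through ATF6 and XBP1 and raise chaperones of the endoplasmic reticulum, gave 0 calls in 16 genes tested by edgeR. Beside 7.54% called over all genes tested, 0 in a list of this length does not set it apart. At an unadjusted p below 0.05 there were 3 higher and 2 lower, DESeq2 called 1 higher, limma-voom called 0, and the median log2 fold change was -0.10. *HSPA5*, the chaperone BiP, was at 485, 499 and 495 CPM with ASO_CTRL and at 716, 680 and 569 CPM with ASO_LINC#3. Its log2 fold change was 0.41 (edgeR adjusted p = 0.0429), that of *EDEM1* was 0.67 (edgeR adjusted p = 0.0202) and that of *MANF* was -0.61 (edgeR adjusted p = 0.0396), so the genes with the smallest p-values did not share a direction. Without ASO_LINC#3 replicate 3 all 3 passed the call, with log2 fold changes of 0.50, 0.81 and -0.84.

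Of the mTORC1 components and regulators that *DDIT4* and *SESN2* act on, 0 of 14 tested were called by edgeR. Here too, with 7.54% of all genes tested called, the count does not set the list apart. At an unadjusted p below 0.05 there were 4 higher and 3 lower, DESeq2 called 1 in each direction and limma-voom called 0. *NPRL3*, a subunit of the GATOR1 complex that restrains mTORC1, was at 39.9, 32.5 and 30.5 CPM with ASO_CTRL and at 22.6, 20.5 and 18.7 CPM with ASO_LINC#3 (log2 fold change -0.72, edgeR adjusted p = 0.0126). *RHEB*, the GTPase that activates mTORC1, had a log2 fold change of 0.58 (edgeR adjusted p = 0.0236) and *TSC1* of 0.52 (edgeR adjusted p = 0.0408). Without ASO_LINC#3 replicate 3 the list gave 1 higher, *RHEB* (0.69), and 3 lower, *NPRL3* (-0.66), *MLST8* and *AKT1S1*, the last of these named because they were called. The median log2 fold change of the list was -0.25.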

How the data were processed

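RNA of H226 cells transfected with ASO_CTRL or ASO_LINC#3 was sequenced from 3 libraries per condition. The authors aligned single reads to hg19 with STAR and deposited raw counts per gene name. How reads were counted, on which annotation and with which strand setting, is not given in the sources used here. Reads assigned to no gene, from 24.84% to 28.08% per library, entered neither library sizes nor tests. Conditions and replicate numbers came from the sample labels. No column of another sample was found.

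edgeR 4.0.16 (R 4.3.3) was used on the counts. The filter was filterByExpr, which left 14660 genes, the scaling TMM (factors from 0.972 to 1.015) and the test the quasi-likelihood F-test without covariates, adjusted by Benjamini-Hochberg over all genes. The common biological coefficient of variation was 0.159. For 1 gene the smallest p that an exact permutation test could give is 0.1 at 3 libraries per condition, so none was used. CPM are TMM-scaled, and the change of a library is its log2 CPM (prior count 2) minus the ASO_CTRL mean. The depth sets the precision of low genes: 3 reads, the limit that a count of 0 allows, equal 0.286 to 0.813 CPM, which covers counting error only.

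The 10 genes and the gene lists were chosen with earlier results of these data known. Named genes were the 10 genes, the 3 tested genes of each list with the smallest unadjusted p, all tested close relatives and *EIF2AK1* to *EIF2AK4*. Other genes are named where they were called or where a library or marker list is described.

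Positions, transcript lengths, GC content and overlaps came from GENCODE v44 lifted to GRCh37, and the authors may have used another release. Of 17221 different names 13370 matched directly and 970 through an older symbol, and 87.2% of tested genes had a length and GC content. Canonical transcripts were used, and the principal isoform where none was marked. Alternatives were DESeq2 1.42.0, limma-voom (limma 3.58.1), other scalings, other filters on low counts, robust dispersion, an adjusted p of 0.05, glmTreat, the replicate number as a block, offsets for GC content and length (splines of 5 degrees of freedom), and leaving out each library. The fit was tested on simulated data. There 46 of 100 genes with a log2 change of 1 were called, 98 of 100 with a change of 2 and 3 of 14460 unchanged genes. A gene that was not called may therefore still differ by a log2 fold change of 1.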

Additional observations from a re-analysis of the deposited data

How the results depend on the processing

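No gene of the 10 changed direction under the 19 alternatives, and 7 of them (*ATF3*, *DDIT3*, *DDIT4*, *TRIB3*, *SESN2*, *PPP1R15A* and *ASNS*) were called in each. The number of the 10 genes called was from 7 to 9. *CHAC1* was not tested with at least 10 counts in every library, and *ATF4* was also called with DESeq2, at an adjusted p below 0.05 and with GC content and length offsets, with or without the block. The genes called over the whole table numbered 2465 at an adjusted p below 0.05, 384 with glmTreat, 1715 with GC content and length offsets and 359 (without ASO_CTRL replicate 3) to 2616 (without ASO_LINC#3 replicate 3) when a library was left out, against 1106 as reported. Genes of the related lists called higher numbered 29 at an adjusted p below 0.05, 7 with glmTreat and 7 to 27 when a library was left out, against 17. Those called lower numbered 2 with DESeq2, 4 at an adjusted p below 0.05, 3 with the offsets, 2 with the offsets and the block, and 1 to 8 when a library was left out, against 1. The cause of these shifts was not tested. *TRIB1* was not called with at least 10 counts in every library or with glmTreat, and *PSAT1*, *MTHFD2*, *CARS* and *GARS* were not called with glmTreat.

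Log2 fold changes that changed sign were those of *EIF2AK2*, with -0.0049 under the offsets, -0.0072 under the offsets and block and a range from -0.0015 (without ASO_LINC#3 replicate 1) to 0.2208 when a library was left out, of *EIF2AK3*, from -0.1524 (without ASO_LINC#3 replicate 1) and -0.0654 (without ASO_CTRL replicate 1) to 0.2966, and of *EIF2AK4*, from -0.131 to 0.0564 (without ASO_CTRL replicate 1). No scaling moved the median of all genes by over 0.1 on the log2 scale.

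Deviations of same-numbered libraries correlated at 0.059, -0.1485 and -0.1795, and those of differently numbered libraries at -0.1423 to 0.1943. No pairing by replicate number was seen in these values. They cannot decide whether same-numbered libraries were prepared together. With the replicate number as a block 656 genes were called over the whole table, and 8 of the 10 genes, with a median log2 fold change of 1.35. *TRIB1* and *GARS* were not called with the block.

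Depth limits *CHAC1* most, with 4 to 12 reads per ASO_CTRL library. The table holds 1 line, 1 time and 1 oligonucleotide, and the 10 genes were chosen on these libraries.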
